A study of Drosophila melanogaster with 8 samples.

Results

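Evening heads of Drosophila melanogaster were compared with late night heads, as polyA+ RNA-seq libraries of whole heads of Canton-S, a wild-type laboratory strain. The comparison holds 4 of the 8 libraries of the series: ZT15, 3 hours after lights off, at 18°C and at 29°C, against late night at 18°C and at 29°C, with 1 library for each temperature and time. ZT counts the hours since lights on in an entraining light-dark cycle. The sample labels give 23 for the late night libraries and the methods of the study give ZT21, so they are called late night throughout. The other 4 libraries, ZT3 at all 3 temperatures and ZT15 at 25°C, give context, since no late night library at 25°C was analysed here. The sex and age of the flies and the number of heads in a library are not given in the sources used here.

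In the fly clock, the transcription factors CLK and CYC switch on per and tim, whose proteins gather through the night and switch CLK and CYC off again. A linked loop runs through vri, which represses Clk, and Pdp1, which activates it, and cwo represses targets of CLK and CYC. The RNAs of per, tim and vri are known to peak early in the night in heads, and Clk and cry RNA peak in the opposite part of the day. Most cells that run this clock in the head are photoreceptors and glia rather than brain clock neurons. In whole heads, fewer cells of a type and less RNA per cell cannot be told apart.

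The deposited table gives, for each annotated transcript, how often a base was covered on average. Values were brought to a library sum of 1000000 and are called levels. Differences are ZT15 minus late night of log2(level + 1), which understates the change of low transcripts, and the error of a difference is the standard error (SE) of a limma model over 6 libraries, ZT3 included. A gene is represented by its leading transcript, the one with the highest mean level. Of 11500 listed genes, 8433 had a leading transcript with a mean level of at least 1 and were tested.

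The ZT15 library at 29°C stood apart from the others. It had 590 transcripts at 0, against 1435 to 1612 in the other 7 libraries, and 237 transcripts were more than 20-fold above every other library. All 14 listed accessory gland markers were above a level of 1 in it and at or below 1 in each other library, and their summed level was 638, against 0.707 in late night heads at 29°C. The 12 listed midgut markers summed to 756 in the ZT15 library at 29°C, against 6.18 late at night at 29°C. Testis markers summed to 79.5 and ovary markers to 146 in that library, against 3.07 and 14.2 late at night at 29°C. Examples are the seminal protein gene EbpII, at 211 against 0.268, and the midgut protease gene Jon65Aiv, at 355 against 0.653. Markers of the head were present in every library, with all 9 photoreceptor and all 9 glial markers above a level of 1. Because of this library, each difference is given at 18°C and at 29°C, and the main counts are repeated in a fit without it, over 7 libraries and all 3 temperatures, which was added after the data were seen.

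No transcript passed the threshold of an adjusted p of 0.05 in limma. Of 14799 transcripts tested, 0 were called (0%), the smallest adjusted p was 0.128, and 3321 had an unadjusted p under 0.05. Of these, 2907 (19.6% of those tested) were higher and 414 (2.8%) were lower at ZT15. With 2 libraries against 2, an exact permutation test that ignores the pairing by temperature cannot give a p below 0.333. A permutation test that keeps the pairing has fewer arrangements and cannot go lower. All that follows is therefore a description of genes that did not pass the threshold, and an unadjusted p is given to rank them. Without the ZT15 library at 18°C, when ZT15 rests on the 29°C library with the markers of other tissues, 1303 transcripts passed, 1229 of them higher. With ZT15 at 29°C left out of the 6, 14 passed, 4 higher and 10 lower. In both of these fits ZT15 is 1 library, the spread comes from the ZT3 and late night libraries with 1 residual degree of freedom, and the lone library is assumed to vary like them. In the fit over 7 libraries, 0 passed, and 2105 had an unadjusted p under 0.05.

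Over the 8433 genes, 1757 (20.8%) were higher and 236 (2.8%) were lower at ZT15 at an unadjusted p under 0.05. The median difference was 0.09 at 18°C and 0.17 at 29°C, and the mean of the 2 had a median of 0.14. This excess of higher genes depended on the scaling. With scaling to the 75th percentile 1075 were higher and 428 lower, with a median of 0.07, and with quantile normalization 551 were higher and 802 lower, with a median of -0.04. Differences of gene groups are therefore read against the median of all genes. The differences at 18°C and 29°C had the same sign in 69.5% of genes, and their Pearson correlation across the 8433 genes was 0.19. This is a description, since genes are not independent and each difference rests on a pair of libraries. A change of at least 1.5-fold in the same direction at both temperatures was seen in 163 genes (1.93%) that were higher and in 13 (0.154%) that were lower at ZT15.

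**Figure D1:**
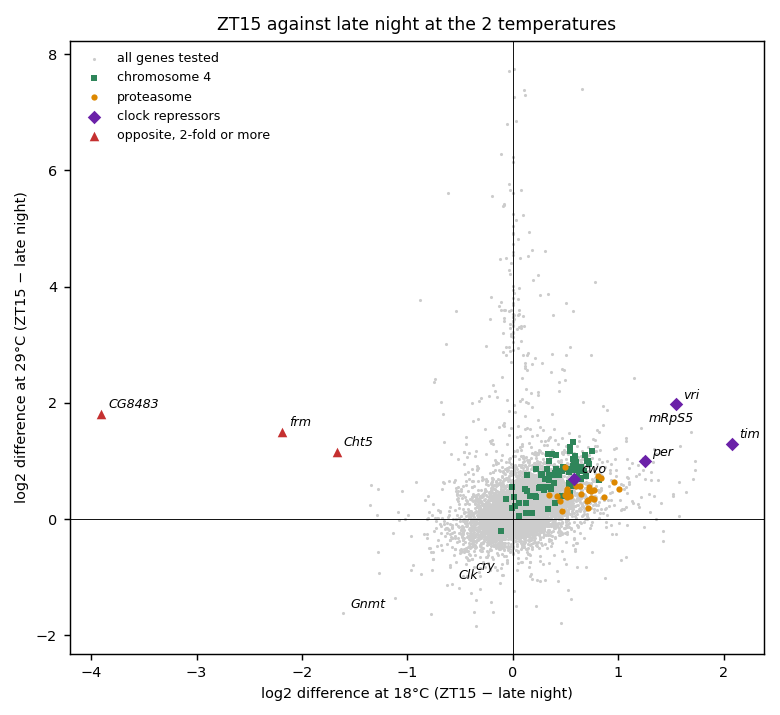
Each point is a gene; the horizontal axis gives the log2 difference between ZT15 and late night at 18°C and the vertical axis the same at 29°C. The clock repressors lie to the upper right, between 0.58 and 2.08 at 18°C, and the vertical streak near 0 at 18°C holds the genes that were high in the ZT15 library at 29°C alone.

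The 4 repressors of the clock were all higher at ZT15 at both temperatures. Of the 4, 4 had an unadjusted p under 0.05, and none of them overlapped between ZT15 and late night libraries, whereas 25.4% of all genes had both ZT15 libraries above both late night libraries. The median difference of the repressors was 1.41, against 0.14 over all genes.

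The light-sensitive repressor gene tim had levels of 84.1 at 18°C and 152 at 29°C at ZT15, against 19.1 and 61.0 late at night. The late night level at 29°C was thus above that at 18°C, and both were below ZT15. The difference of tim was 2.08 at 18°C and 1.30 at 29°C, with a mean of 1.69 ± 0.44 (SE, limma, unadjusted p = 0.0126, adjusted p = 0.153). All 8 tested transcripts of tim behaved alike, with mean differences from 1.68 to 1.70. The leading transcript of vri, the repressor of Clk, stood at 48.1 and 82.3 at ZT15, against 15.8 and 20.1 late at night. This was the largest mean difference of the 4, 1.76 ± 0.53 (SE, limma, adjusted p = 0.174). Its ZT3 level was 33.0 at 18°C and 11.6 at 29°C, so that late night lay below ZT3 at 18°C and above it at 29°C.

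The level of per, the partner of tim, was 19.6 and 18.1 at ZT15, against 7.65 and 8.56 late at night. Its mean difference was 1.12 ± 0.25 (SE, limma, adjusted p = 0.142). For cwo the levels were 24.3 and 23.7 at ZT15, against 16.0 and 14.3 late at night, with a mean difference of 0.64 ± 0.12 (SE, limma, adjusted p = 0.136). This was the smallest difference of the 4 repressors and the one with the smallest spread. The ZT15 library at 25°C gave 143 for tim, 87.2 for vri, 22.7 for per and 27.3 for cwo, each above the late night levels at both other temperatures.

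The activator gene Clk ran the other way. Its levels were 7.36 at 18°C and 5.72 at 29°C at ZT15, against 11.5 and 13.6 late at night, with a mean difference of -0.85 ± 0.19 (SE, limma, unadjusted p = 0.00631, adjusted p = 0.142). Late night was above ZT15 and above ZT3 at both temperatures, and all 3 tested Clk transcripts had differences of -0.85. The blue-light receptor gene cry, whose protein resets the clock by binding TIM, had 52.4 and 40.0 at ZT15, against 70.6 and 79.5 late at night. Neither gene had overlapping groups, and the mean difference of cry was -0.70 ± 0.19 (SE, limma, adjusted p = 0.161). The partner of CLK, cyc, which is known not to cycle, had 18.4 and 16.2 at ZT15, against 15.7 and 14.0 late at night, a difference of 0.21 that is close to the median of all genes.

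Pdp1, the activator of Clk, differed between the temperatures. Its leading transcript had 119 at ZT15 against 125 late at night at 18°C, and 162 against 98.3 at 29°C. The differences of its 8 tested transcripts ran from -0.25 to 0.21 at 18°C and from 0.58 to 0.80 at 29°C, and none had an unadjusted p under 0.05. With 1 library per temperature and time, the difference between the temperatures could not be tested.

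**Figure D2:**
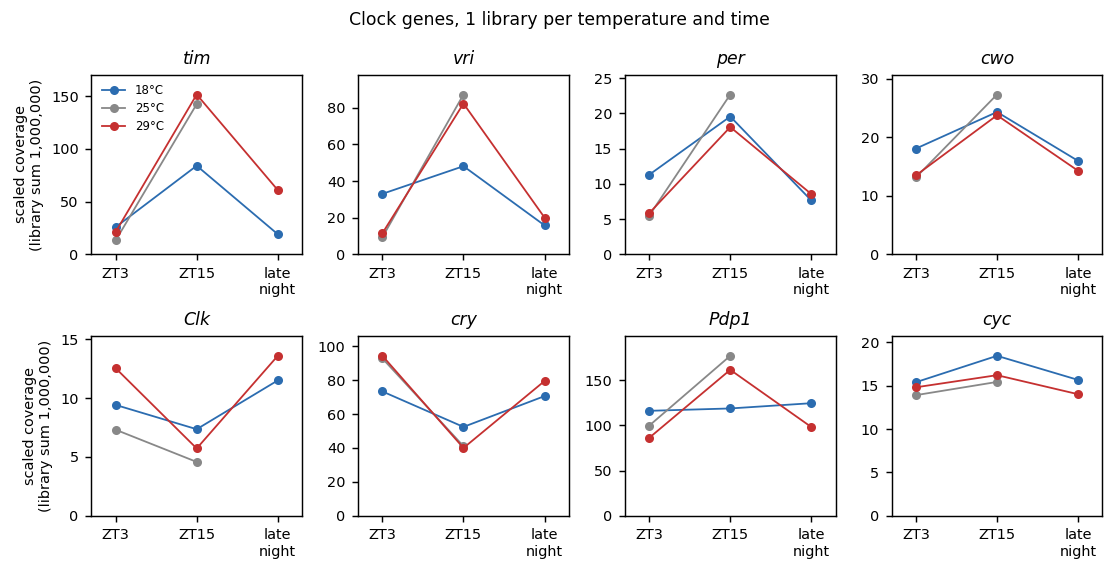
Level of the leading transcript of 8 clock genes (vertical axis, scaled coverage, from 0) at ZT3, ZT15 and late night (horizontal axis), with 1 point per library and a line for each temperature. tim, vri, per and cwo stood highest at ZT15 at every temperature, Clk and cry stood lowest there, and Pdp1 had a peak at ZT15 at 29°C (162) but not at 18°C (119).

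Enzymes that modify clock proteins or mark them for degradation had a share of higher genes near that of all genes. Of 15 tested, 4 had an unadjusted p under 0.05 and were higher and 0 were lower, against 20.8% higher and 2.8% lower in all genes, and their median difference was 0.21, against 0.14. The largest was Usp8, a deubiquitinase that acts on CLK, with 18.2 and 24.3 at ZT15, against 9.92 and 11.3 late at night. Its groups did not overlap, and its mean difference was 0.93 ± 0.13 (SE, limma, unadjusted p = 0.000941, adjusted p = 0.128). ctrip, a ubiquitin ligase for CLK, had a difference of 0.45, the kinase subunit gene CkIIalpha had 0.49 and the ubiquitin ligase scaffold gene Cul3 had 0.36, with adjusted p of 0.147, 0.163 and 0.165 in limma. The PER kinase gene dco had 0.39 and the ligase gene slmb had 0.33, both mostly from 29°C, where they differed by 0.68 and 0.55. The remaining 9 lay between -0.016 for wdb and 0.22 for Pp2A-29B: CkIIbeta at 0.21, tws at 0.21, cos at 0.18, nmo at 0.11, mts at 0.060, jet at 0.036 and sgg at 0.0061.

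Among 12 genes of light input and related roles, cry and Eip75B were lower at an unadjusted p under 0.05 and none was higher. Over all genes 20.8% were higher and 2.8% lower. In the fit without the ZT15 library at 29°C, cry alone of the 12 was lower. The nuclear receptor gene Eip75B had 40.3 and 48.6 at ZT15, against 56.3 and 53.7 late at night, a mean difference of -0.31 ± 0.12 (SE, limma, adjusted p = 0.22). The others had small differences. Fbxl4 differed by 0.16, nej by 0.14, Bx by 0.11, brm by 0.10, tyf by 0.055, Hr51 by 0.044, NAT1 by 0.023, qsm by -0.035, Atx2 by -0.043 and kay by -0.12.

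Of 28 tested genes known to cycle in heads, 3 were higher and 6 were lower at an unadjusted p under 0.05, against 20.8% higher and 2.8% lower in all genes, with a median of 0.14. Beside Usp8, CG2121 was higher, with 29.9 and 17.9 at ZT15, against 15.2 and 8.81 late at night. Pdh, a photoreceptor dehydrogenase that handles retinoids, had 1013 and 560.5 at ZT15, against 1404 and 1111 late at night, a mean difference of -0.73 ± 0.17 (SE, limma, adjusted p = 0.147). In BDGP6, 43.3% of the exon bases of Pdh are shared with Tcs3 or an antisense RNA, so its coverage may include theirs.

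The 12 genes with the smallest p among those higher at ZT15, with the same sign at both temperatures, had differences from 0.72 to 1.40, SE from 0.09 to 0.12 and an adjusted p of 0.128 each in limma. Their ZT15 and late night libraries did not overlap in 10 of 12, which the choice by p favours, as 25.4% of all genes had both ZT15 libraries higher. Over all genes, 998 were higher at an unadjusted p under 0.05 in the fit without the ZT15 library at 29°C, and 551 with quantile normalization. Of the 12, 12 kept their direction and such a p in the first and 11 in the second. The choice by p in shared libraries favours this too. mRpS5, a protein of the small mitochondrial ribosome subunit, led them, with 50.4 at 18°C and 29.1 at 29°C at ZT15, against 21.1 and 9.08 late at night. Its mean difference was 1.40 ± 0.12 (SE, limma, unadjusted p = 9.67e-05). The ubiquitin ligase gene gol had 88.3 and 83.8 at ZT15, against 44.2 and 35.2 late at night. It was at 51.8 and 42.5 at ZT3, so that ZT15 stood alone as its high time at both temperatures. Cipc, whose product binds CLK, had the same form, with 36.3 and 29.6 at ZT15, against 20.7 and 16.6 late at night and 19.9 and 15.4 at ZT3.

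Atf6, a membrane-bound transcription factor of the response to unfolded proteins, had 24.5 and 11.7 at ZT15, against 12.1 and 4.55 late at night. Here the level at ZT15 at 29°C was just below that of late night at 18°C, and the pairs within a temperature differed by 0.96 and 1.20. Cln3, the fly counterpart of a human gene of lysosomal storage disease, had 16.8 and 9.08 at ZT15, against 8.43 and 4.60 late at night. CG13796 had 15.8 and 5.37 at ZT15, against 6.94 and 1.52 late at night. The mean differences of the others were 1.15 for CG18302, 1.05 for CG33217, 0.95 for CG17883, 0.90 for CG5262, 0.80 for rho-6 of the rhomboid family and 0.72 for yellow-h.

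The 12 genes with the smallest p among those lower at ZT15 had differences from -1.61 to -0.52, with adjusted p from 0.128 to 0.133 in limma. The groups did not overlap in 9 of 12, chosen by p in the same libraries, and 5.42% of all genes had both ZT15 libraries below both late night libraries, so nothing is read from this count. Over all genes, 211 were lower at an unadjusted p under 0.05 in the fit without the ZT15 library at 29°C, and 802 with quantile normalization. All 12 kept their direction and such a p in both, which the choice by p in shared libraries favours. The largest difference was in Gnmt, glycine N-methyltransferase, an enzyme that uses up S-adenosylmethionine, with 13.1 and 16.5 at ZT15, against 42.0 and 52.7 late at night. The difference was -1.61 at 18°C and -1.62 at 29°C, with a mean of -1.61 ± 0.27 (SE, limma, adjusted p = 0.128). At 25°C, Gnmt was at 83.3 at ZT3 and 116 at ZT15, above every late night library. Miox, which breaks down inositol, had 228 and 186 at ZT15, against 552 and 354 late at night. Tdh, a threonine dehydrogenase, had 21.1 and 22.9 at ZT15, against 32.4 and 40.2 late at night.

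CG12158 was among the abundant RNAs of these heads, with 945 and 1247 at ZT15, against 1821 and 2155 late at night. The calcium sensor calmodulin, Cam, had 1497 and 1239 at ZT15, against 2382 and 1796 late at night, a mean difference of -0.60 ± 0.10 (SE, limma, adjusted p = 0.128). CG17127 had the smallest p, with 5.96 and 1.29 at ZT15, against 14.1 and 4.86 late at night. Its groups overlap across temperatures, since its level was lower at 29°C at both times. The others differed by -0.93 for CG34180, -0.82 for CG16798, -0.72 for CG10513, -0.66 for CG6999, -0.56 for CG15465 and -0.52 for CG6013. All exon bases of CG15465 (100%) lie within rg in BDGP6, and 25.8% of those of CG34180 lie within ND-51, so these values may hold reads of their neighbours.

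**Figure D3:**
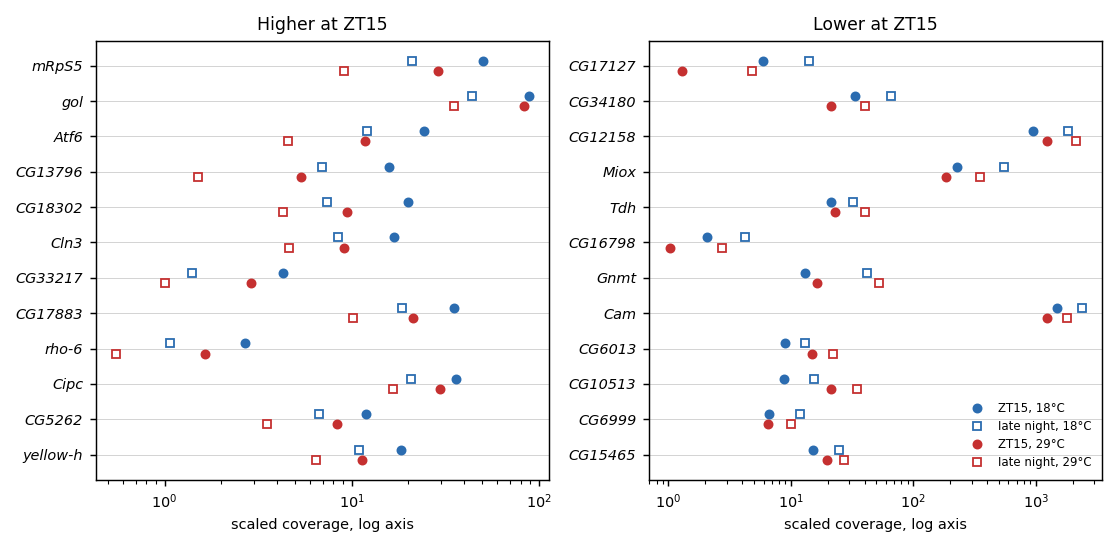
Levels (horizontal log axis, scaled coverage) of the 12 genes of smallest p that were higher at ZT15, left, and the 12 that were lower, right, with filled circles for ZT15, open squares for late night, blue for 18°C and red for 29°C. Within each temperature the ZT15 circle lies on one side of the late night square for each gene, such as gol at 88.3 against 44.2 at 18°C and 83.8 against 35.2 at 29°C.

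A difference of at least 2-fold at both temperatures was seen in 15 genes, 13 higher and 2 lower. The lower ones were Gnmt and CG17127. The higher ones were tim, vri, mRpS5, CG13796, CG33494, CG7227, Cyp4e3, CG16782, Obp56f, Pxd, FASN2, CG14752 and Cpr97Ea, several of which are low in these heads. They were taken by their values and are a description. The cytochrome P450 gene Cyp4e3 had 21.2 and 8.58 at ZT15, against 6.39 and 3.01 late at night, and 0.906 at ZT15 at 25°C. FASN2, a fatty acid synthase, had 2.79 and 5.85 at ZT15, against 0.705 and 0.274 late at night, and its level at 29°C comes from the library with markers of other tissues.

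The genes of the proteasome were higher at ZT15 together. The proteasome is the protease that degrades ubiquitin-marked proteins, PER and TIM among them, and is built from a core of alpha and beta subunits (Prosalpha and Prosbeta genes) and a regulatory cap (Rpn and Rpt genes). Of 38 listed genes, 29 were tested, and 27 of them were higher at an unadjusted p under 0.05 and 0 lower, where 20.8% of all genes were higher. All 29 differed in the same direction at both temperatures, with a median of 0.70 at 18°C and 0.46 at 29°C, against 0.09 and 0.17 over all genes. The remaining 9 listed genes were below the filter.

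Rpn11, the deubiquitinase of the cap, had 134 at 18°C and 53.1 at 29°C at ZT15, against 68.7 and 33.6 late at night, the largest mean difference of the list at 0.80 ± 0.17 (SE, limma, adjusted p = 0.14). Rpn3, another cap subunit, had 110.5 and 52.9 at ZT15, against 61.3 and 32.1 late at night, and the smallest p of the list (0.00198, unadjusted, limma). The core subunit gene Prosalpha4 had 88.9 and 63.8 at ZT15, against 50.3 and 37.6 late at night. Prosalpha4 is 1 of 5 genes of the 29 whose groups did not overlap, against 25.4% of all genes with both ZT15 libraries above both late night libraries, whereas for Rpn11 and Rpn3 late night at 18°C was above ZT15 at 29°C. Prosbeta2, a catalytic core subunit, had 112 and 76.8 at ZT15, against 67.5 and 52.3 late at night. The exceptions, with an unadjusted p above 0.05, were Rpn8 at 0.30 (limma, adjusted p = 0.329) and Rpn13 at 0.46 (limma, adjusted p = 0.232).

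The proteasome genes also depended on temperature and on the libraries used. Their median level was 110.3, 115 and 69.7 at ZT3, ZT15 and late night at 18°C, and 48.4, 62.9 and 46.8 at 29°C. At 18°C the late night library was low against both other times, and at 29°C the ZT15 library was high against both. At 25°C, all 29 genes were lower at ZT15 (median level 46.2) than at ZT3 (median level 58.7). In the fit without the ZT15 library at 29°C, which brings in 25°C, 3 of the 29 were higher at an unadjusted p under 0.05. In that fit 998 of the 8433 genes were higher, so the list did not stand out from all genes there. The count also varied when single libraries of the 6 were left out. With quantile normalization it was 24, where 551 of the 8433 genes were higher. Without temperature as a factor (no pairing of libraries) it was 0, where 292 of the 8433 were. Another 6 genes of the same pathway were looked up after these values were seen. The differences were 0.88 for Usp14 and 0.78 for Uch-L5, both deubiquitinases that bind the proteasome, 0.65 for the unfoldase gene TER94, 0.65 for the shuttle gene Rad23, 0.52 for the assembly factor gene Pomp and 0.44 for the ubiquitin-activating enzyme gene Uba1. In the fit without the ZT15 library at 29°C they ran from 0.22 for Uch-L5 to 0.59 for TER94. Rad23 lies on chromosome 4, described below. These genes were picked by hand, so nothing is read from them about the pathway.

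**Figure D4:**
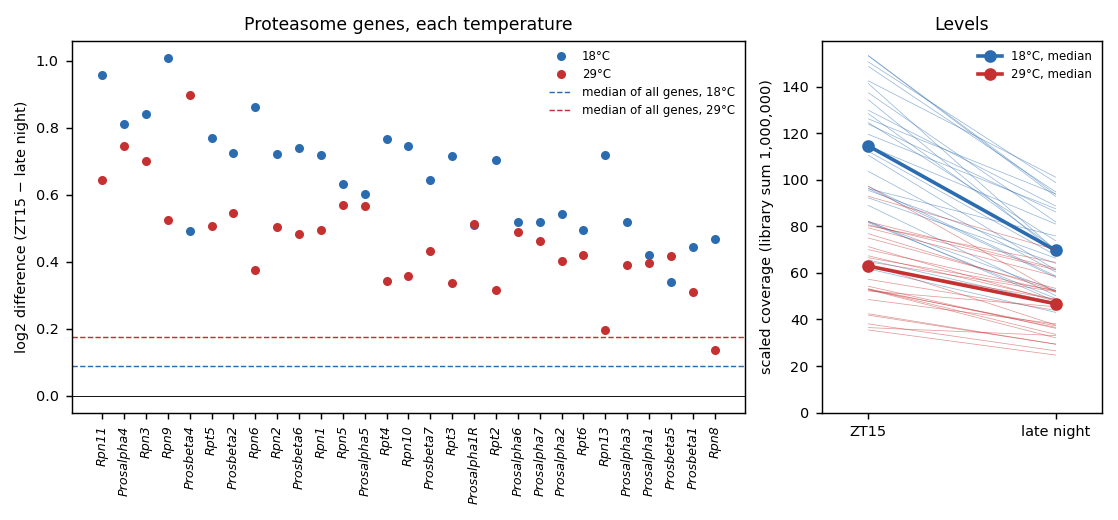
Left, log2 difference between ZT15 and late night (vertical axis) of the 29 tested proteasome genes, in blue for 18°C and in red for 29°C, with dashed lines at the median of all genes; right, their levels at ZT15 and late night, with thick lines for the medians. The median level was 115 at ZT15 against 69.7 late at night at 18°C and 62.9 at ZT15 against 46.8 late at night at 29°C.

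Genes on chromosome 4 were mostly higher at ZT15, at both temperatures. Chromosome 4 is the small dot chromosome of the fly, which is rich in heterochromatin and whose genes are bound by the protein POF. It was looked at after the data were seen. Of its 76 tested genes, 62 (81.6%) were higher at an unadjusted p under 0.05 and 0 lower. On the other arms the share of higher genes ran from 14.97% on X to 24.6% on 2L, and the difference between the arms is a description with no test. The median difference on chromosome 4 was 0.40 at 18°C and 0.73 at 29°C, against 0.09 and 0.17 over all genes. Of the 76, 72 were higher at both temperatures, as were 852 of 1490 tested genes on 2L and 667 of 1436 on X. In the fit without the ZT15 library at 29°C, 59 were higher and 0 lower, where 998 of the 8433 genes were higher and 211 lower. With quantile normalization 50 were higher and 1 lower, where 551 of the 8433 were higher and 802 lower. Without temperature as a factor, 7 were higher, where 292 of the 8433 were.

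The 4 genes of chromosome 4 with the smallest p were yellow-h, CG32017, Zyx and CaMKI. CaMKI, a calcium-dependent kinase gene, had 140.0 and 88.3 at ZT15, against 91.3 and 53.3 late at night, a mean difference of 0.66 ± 0.090 (SE, limma, adjusted p = 0.128). Zyx, which encodes the adhesion protein zyxin, had 51.1 and 31.3 at ZT15, against 32.7 and 17.2 late at night. CG32017 had 59.9 and 32.2 at ZT15, against 36.4 and 15.6 late at night. In these 3 genes the levels were lower at 29°C than at 18°C at each time. The median log2 level of the chromosome was 4.97, 5.18 and 4.80 at ZT3, ZT15 and late night at 18°C, and 4.33, 4.66 and 3.98 at 29°C. The tested genes of chromosome 4 have longer transcripts in BDGP6 (median 3943 bases) than those of the other arms (2104 to 2466 bases). The part of transcript length in this result was not tested within the chromosome. Over all arms, genes with transcripts of 2693 to 4294 bases, a range that holds the chromosome 4 median length, had a median difference of 0.16. The longest 20%, from 4294 bases, had 0.09, and all genes had 0.14.

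**Figure D5:**
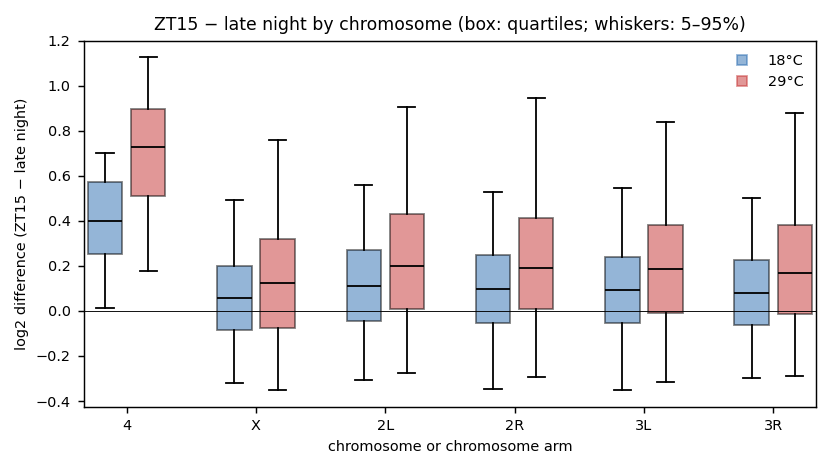
Log2 difference between ZT15 and late night (vertical axis) of the tested genes of each chromosome arm (horizontal axis), in blue for 18°C and in red for 29°C; boxes span the quartiles, the line is the median and whiskers span 5% to 95% of the genes. The boxes of chromosome 4 (medians 0.40 and 0.73) lie above those of the other arms.

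Several cell type markers lie on chromosome 4. The glial GABA transporter gene Gat differed by 0.57 at 18°C and 1.32 at 29°C, with a mean of 0.95. The fat body lipoprotein gene apolpp had 0.33 and 1.12, with a mean of 0.73. The muscle gene bt had 0.37 and 0.51, with a mean of 0.44. Neuronal markers had a median difference of 0.010, photoreceptor markers 0.011, glial markers 0.046, muscle markers 0.11, hemocyte markers 0.20 and head fat body markers 0.21, against 0.14 over all genes. Among the neuronal markers, the synaptic genes Snap25 and VGlut differed by 0.73 and 0.61 and nSyb by -0.43. The summed level of the fat body markers went in opposite directions, with 20750.0 at ZT15 against 14179 late at night at 18°C, and 10337 against 17047 at 29°C.

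In the phototransduction list, 8 of 38 tested genes were higher and 5 lower at an unadjusted p under 0.05, against 20.8% higher and 2.8% lower in all genes, with a median of 0.0078. With scaling to the 75th percentile 4 were higher and 6 lower, so that no direction holds for the list. Genes of carotenoid uptake were among the higher ones. The scavenger receptor gene ninaD had 10.1 and 5.30 at ZT15, against 5.88 and 3.07 late at night, and santa-maria had 64.6 and 42.2, against 48.5 and 25.6. Lower ones included Cam and Pdh, given above, the scaffold gene inaD and Culd, whose product acts in the turnover of Rhodopsin 1. For inaD the levels were 191 and 139.5 at ZT15, against 237 and 276 late at night, and for Culd they were 89.2 and 90.3, against 119 and 147. The Rhodopsin 1 gene ninaE, the most abundant of these, had 7694 and 13263 at ZT15, against 10004 and 17003 late at night. Summed over the 9 photoreceptor markers, the level was 16185 at ZT15 against 18782 late at night at 18°C, and 23153 against 28223 at 29°C, and its part in the lower genes was not tested.

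Abundant housekeeping groups had median differences below that of all genes. The fifth of genes with the highest levels had a median of 0.03 itself, and the part of level in this result was not tested. Of 82 tested genes of the cytosolic ribosome, 0 were higher and 5 lower at an unadjusted p under 0.05, against 20.8% higher and 2.8% lower in all genes, with a median of -0.10, and of 55 genes of the mitochondrial respiratory chain, 0 were higher and 7 lower, with a median of -0.11. With quantile normalization the medians were -0.044 and -0.10, where the median of all genes was -0.04. RpL29 had 1121 and 1853 at ZT15, against 1569 and 2306 late at night, and the cytochrome c oxidase subunit gene COX5B had 393 and 362, against 546 and 431. The other named members differed by -0.31 for RpL13A, -0.31 for RpL24, -0.34 for RpL31, -0.34 for ATPsynCF6, -0.34 for COX5A and -0.30 for ND-B15. Some ribosomal protein genes have similar copies elsewhere in the genome, and whether reads were shared between copies was not tested.

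Of 20 tested chaperone genes, 4 were higher and 0 lower at an unadjusted p under 0.05, a share of higher genes near the 20.8% of all genes. With scaling to the 75th percentile, with quantile normalization and in the fit without the ZT15 library at 29°C, 1 was higher in each. Hsp83, the fly Hsp90, had 211 and 315 at ZT15, against 165 and 219 late at night. Its partner gene Stip1 differed by 0.31, the mitochondrial Hsc70-5 by 0.31 and the chaperonin subunit gene CCT3 by 0.26.

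Metabolic groups were mixed. Of 29 tested genes of fatty acid metabolism and fat storage, 9 were higher and 2 lower at an unadjusted p under 0.05, against 20.8% higher and 2.8% lower in all genes. The lipase gene Hsl had 22.1 and 16.3 at ZT15, against 16.5 and 11.9 late at night, Mtpalpha of mitochondrial beta-oxidation differed by 0.37 and the lipid droplet gene Lsd-1 by 0.35. With quantile normalization 5 of the 29 were higher and 2 lower. Among 34 genes of sugar and amino acid metabolism, 1 was higher and 1, Gnmt, was lower at the same threshold, and the tyrosine hydroxylase gene ple, at the head of dopamine synthesis, had 59.3 and 13.7 at ZT15, against 88.0 and 21.4 late at night and 193 and 24.0 at ZT3.

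Among detoxification genes, 9 of 57 cytochrome P450 genes were higher and 3 lower at an unadjusted p under 0.05, as were 3 and 1 of 18 glutathione transferase genes and 6 and 0 of 17 UDP-glucuronosyltransferase genes, against 20.8% higher and 2.8% lower in all genes. With quantile normalization the P450 counts turned to 2 higher and 8 lower and those of glutathione transferases to 0 higher and 3 lower, so that no direction holds for either family, and 4 UDP-glucuronosyltransferase genes were higher and 1 lower. The largest difference among the glutathione transferases was in GstZ2, of the zeta class, with 18.0 and 13.0 at ZT15, against 31.5 and 42.6 late at night. It was low at ZT15 at every temperature, at 15.3 at 25°C, and its mean difference was -1.21 ± 0.27 (SE, limma, adjusted p = 0.142). Ugt50B3 and Ugt317A1 differed by 0.67 and 0.64, and Cyp4e1 by 0.55.

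Immune and stress genes had shares of higher and lower genes near those of all genes. Of 25 tested, 4 were higher and 1 lower at an unadjusted p under 0.05, against 20.8% higher and 2.8% lower in all genes, and with quantile normalization 1 was higher and 1 lower. The stress-induced secreted peptide gene TotA had 127 and 18.8 at ZT15, against 61.9 and 12.1 late at night, TotM differed by 1.20 and the antibacterial peptide gene AttC had 5.90 and 99.9, against 3.06 and 43.6. The levels of TotA and AttC differed more between the temperatures than between the times.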

How the data were processed

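The authors aligned paired-end reads to dm3 and deposited a coverage signal, averaged over the bases of every annotated transcript. The submitters' processing notes name Bowtie2, TopHat and Cufflinks, with no role or version. These values are fractional, so the depth is unknown and neither count models nor counting intervals were used. They sum to 92886 to 108550 per library. Values in 56 unnamed columns, in 99 rows, were not used. Symbols were matched to RefSeq (Release 6) for 11381 of 11500 genes.

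Values were scaled to a library sum of 1000000. Transcripts with a mean of at least 1 over the 8 libraries were tested as log2(value + 1) with limma 3.58.1 in R 4.3.3, over the 6 libraries at 18°C and 29°C, with time and temperature as factors, 2 residual degrees of freedom and Benjamini-Hochberg adjustment at 0.05. Temperature pairs ZT15 with late night by the labels, and libraries of 1 temperature deviated together from their time means (Pearson correlation 0.58 across 8433 genes, equal in both pairs by construction). Libraries rather than separate flies are the replicates. The p-values measure the spread between libraries that is left after time and temperature are fitted. This spread includes any difference in the time course between the temperatures.

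Named genes are all tested clock genes, 12 genes in each direction (none passed, so those of smallest unadjusted p with the same sign at both temperatures) and up to 4 genes of smallest p per list. Genes and lists were chosen with earlier results of these data known. Exon overlaps and lengths come from BDGP6, not dm3. Whether the libraries kept the strand is not given in the sources used here.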

Additional observations from a re-analysis of the deposited data

Results flagged for a closer look

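Among the genes tested, 3 differed at least 2-fold in opposite directions at the 2 temperatures, each lower at ZT15 at 18°C and higher at ZT15 at 29°C. The difference between the temperatures was not tested, since each rests on 1 library per temperature and time. CG8483 had 5.60 at ZT15 against 97.9 late at night at 18°C, and 6.67 against 1.18 at 29°C, so that its log2 differences were -3.90 and 1.81, and the 18°C difference minus the 29°C difference was -5.72. frm, which is also known as CG10625, had 1.13 against 8.75 at 18°C and 3.79 against 0.690 at 29°C, with differences of -2.19 and 1.50, and the 18°C difference minus the 29°C difference was -3.69. The chitinase gene Cht5 had 15.5 against 51.7 at 18°C and 14.3 against 5.86 at 29°C, with differences of -1.67 and 1.16, and the 18°C difference minus the 29°C difference was -2.83. In all 3 genes ZT3 was the highest time at both temperatures, with 156 at 18°C and 41.4 at 29°C for CG8483, 22.5 and 6.42 for frm and 73.9 and 17.8 for Cht5. At 25°C they stood at 33.1, 5.66 and 27.0 at ZT3 and at 2.49, 0.532 and 5.77 at ZT15. The lowest of the 3 times was ZT15 at 18°C and late night at 29°C.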

How the results depend on the processing

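The count of transcripts past the threshold was 0 under each alternative to the processing and 0 to 1303 when each library of the 4 was left out in turn, and for genes of the lists it was 0 and 0 to 96. The count at an unadjusted p under 0.05 was 3321, and 558 with no replicate block (without temperature as a factor), 1786 genes with transcripts summed per gene, 2105 in the 7 libraries without ZT15 at 29°C and 1672 to 3574 when leaving out each library. Of these, 87.5% were higher with scaling to the library sum, 70.8% with scaling to the 75th percentile and 45.5% with quantile normalization. With no replicate block 0 proteasome genes and 7 chromosome 4 genes were higher, where 292 of the 8433 genes were. That count over all genes was 1796 with all 8 libraries and 998 in the 7 libraries. The proteasome count was 17 with all 8 libraries, 3 in the 7 libraries and 6 to 26 when leaving out each library, and that of chromosome 4 was 44 to 63. The 176 genes that differed at least 1.5-fold at both temperatures became 293 with a pseudocount of 0.1, 54 with 5 and 91 with quantile normalization. The cause of these changes was not tested.

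Some named genes changed sign, among them genes with differences near 0 and markers of other tissues that were high in the ZT15 library at 29°C. With scaling to the 75th percentile, the difference turned to -0.015 for mts, -0.034 for jet, -0.069 for sgg, -0.017 for tyf and -0.051 for NAT1. With quantile normalization, the difference turned to -0.053 for cos, -0.0035 for nmo, -0.012 for mts, -0.14 for jet, -0.061 for sgg, -0.055 for brm, -0.051 for Bx, -0.015 for nej, -0.088 for tyf, -0.34 for Hr51, -0.050 for NAT1, -0.17 for Hr38, 0.00042 for Arr2 and -0.0040 for Mal-B1. With all 8 libraries, the difference turned to 0.10 for wdb and 0.0051 for Atx2. With transcripts summed per gene, the difference turned to -0.077 for sgg. With 7 libraries, without ZT15 at 29°C, the difference turned to -0.073 for mts, 0.10 for wdb, 0.0037 for kay, 0.036 for Atx2, -0.073 for Jon65Aiii, -0.20 for CycB, -0.17 for nanos, -0.093 for Mst87F and -0.083 for Mst84Db. Leaving out each library of the 4 in turn, the difference turned sign within ranges of -0.090 to 0.73 for Pdp1, -0.048 to 0.17 for mts, -0.18 to 0.15 for wdb, -0.078 to 0.090 for sgg, -0.16 to 0.45 for nej, -0.050 to 0.16 for tyf, -0.16 to 0.25 for Hr51, -0.0068 to 0.054 for NAT1, -0.82 to 0.018 for sxe2, -0.077 to 7.75 for Jon65Aiii, -0.0027 to 5.33 for CycB, -0.0037 to 3.39 for nanos, -0.020 to 3.74 for Mst84Db, -3.38 to 1.29 for CG8483, -1.97 to 1.29 for frm and -1.44 to 0.92 for Cht5. The count model listed among the alternatives needs whole reads and was not run. The depth is unknown, there is 1 library per temperature and time, and the ZT15 library at 29°C holds markers of other tissues, so differences at 29°C alone rest on that library.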

Other observations

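Smaller groups of head genes were also counted. Of 27 tested odorant-binding protein genes, 3 were higher and 5 lower at ZT15 at an unadjusted p under 0.05, against 20.8% higher and 2.8% lower in all genes. The most abundant of the named ones, Obp44a, had 2212 and 1390.0 at ZT15, against 2926 and 1745 late at night, Obp49a differed by -0.36, Obp56h by -0.40 and Obp56f by 1.24. Of 25 tested neuropeptide genes, 2 were higher, Proc at 0.29 and sNPF at 0.28, and 0 lower, a share of higher genes below the 20.8% of all genes. With scaling to the 75th percentile 0 neuropeptide genes were higher and 0 lower, and with quantile normalization 0 were higher and 3 lower. Of 26 genes of ion channels and sleep, 4 were higher and 1 lower. The dopamine transporter gene DAT had 8.46 and 5.33 at ZT15, against 6.76 and 2.73 late at night, and the GABA receptor gene Rdl had 70.7 and 62.2, against 89.6 and 80.1. With quantile normalization 0 of these channel and sleep genes were higher and 5 lower.

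Of 42 tested cuticle genes, 7 were higher and 2 lower at an unadjusted p under 0.05, against 20.8% higher and 2.8% lower in all genes. With quantile normalization 1 was higher and 9 lower, where 551 of all genes were higher and 802 lower. Cpr67B had 130.2 and 93.5 at ZT15, against 178 and 135 late at night, and Cpr97Ea had 80.6 and 19.5, against 37.4 and 9.00. Of 14 genes that respond to light or activity, 1 was higher, svr at 0.45, and 0 lower, a share of higher genes below the 20.8% of all genes. Hr38, an activity-induced nuclear receptor gene, was high at ZT3, with 7.41 at 18°C and 5.22 at 29°C, and had 1.84 and 1.25 at ZT15, against 1.25 and 0.967 late at night.

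The filter took the mean over all 8 libraries, so genes high in the ZT15 library at 29°C alone could pass it through that library. Examples are nanos, at 9.58 there and at most 1.07 elsewhere, and Mst84Db, at 12.9 there and at most 0.124 elsewhere. Both have low mean levels, and the part of such genes in the 29°C values was not tested. The median difference was smaller in the genes of the highest levels than in those of the lowest. In the fifth of genes with the lowest levels it was 0.10 at 18°C and 0.33 at 29°C, and in the fifth with the highest levels it was 0.03 and 0.05.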
